A study of Mus with 16 samples.

Results

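The macrophage genes C1qa, C1qb, C1qc, Lyz2, Cd68, Csf1r, Itgam, Mrc1, Cd163 and Arg1, were followed by RNA sequencing in B16 tumours, a transplantable melanoma of C57BL/6 mice. They are 10 of the 38087 genes of the deposited count table, chosen by name and not by their values, and all 10 were tested. Libraries came from 16 tumours in 4 groups of 4. Tumours of wild-type (WT) mice and of mice depleted of B cells were each taken untreated or after anti-PD-L1 antibody. PD-L1 is the ligand that restrains T cells through PD-1. Treatment began once tumours had grown for 7 days and consisted of 3 doses, one every 3 days. Tissue was collected 3 days after the final dose. Untreated mice received no anti-PD-L1. The series text also names an intratumoral injection of 3M-052 or control, which the sample labels do not assign to any library. Columns of the depleted groups are named BKO and the means of B cell removal is not given for these libraries, so a comparison by B cell status may be one of knockout with WT mice. The study used muMt- mice, which make no mature B cells, among its ways of removing them. Libraries are named here by group and column letter, as in depleted untreated B.

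Macrophages are phagocytes that tumours draw from blood monocytes and from cells already in the tissue, and signalling through the CSF1 receptor keeps them alive. They take up dying cells and debris, make the complement protein C1q in tissues, and in tumours can restrain or help T cells. The mannose receptor, the haemoglobin scavenger receptor CD163 and arginase 1 are often used as marks of an alternatively activated, tissue-repair state. RNA of a whole tumour mixes all cells, so fewer macrophages and less RNA per macrophage cannot be told apart in these values.

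Positions are on build mm10. The 3 C1q genes lie side by side on the minus strand of chromosome 4, C1qb at 136880129 to 136886187, C1qc at 136889804 to 136893065 and C1qa at 136895917 to 136898803, a cluster of 18675 bases in all. The listed length of each gene is its whole span, introns included, and which features and which strand were counted is not given in the sources read. Of the 10 spans, 8 overlap no other listed gene. The listed span of Csf1r (chromosome 18, 61105572 to 61132149, plus strand) shares its last 871 bases, 3.28% of the span, with Hmgxb3 on the opposite strand. The span of Mrc1 (chromosome 2, 14229414 to 14332057) contains the microRNA gene Mir511, which had 0 counts.

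Total counts ran from 12544573 to 35647409 per library. Values are read counts for each 1000000 reads of the library (CPM) on TMM-scaled library sizes, with the standard deviation (SD) over the 4 libraries of a group. Melanoma genes were far more abundant: the 9 melanocyte and melanoma genes listed, such as Pmel and Tyr, summed to between 22756 and 27269 CPM. The 10 macrophage genes together summed to 35.3 to 203 CPM. These sums do not measure the share of RNA from each cell type. Other macrophage markers were read at low levels too, with a mean over the 16 libraries of 2.38 CPM for Adgre1, which encodes F4/80, and 1.45 CPM for Fcgr1, a high-affinity Fc receptor. Single markers that define some other myeloid and lymphoid cells were close to 0. Ly6g of neutrophils had 3 counts over all 16 libraries and Ncr1 of NK cells 13. Other genes of those lists had enough counts to be tested, 3 of 13 for neutrophils and 1 of 8 for NK cells. The list of monocyte genes summed to 71.5 to 217 CPM over the libraries and that of dendritic cell genes to 15.5 to 107. Library depleted untreated B stood apart in the slope of expression on GC content (-0.72 log2 CPM per 10 percentage points, against -0.46 to 0.32 in the other 15). Results without that library are given where it matters. The slope also differed by group. Every WT treated library had a lower slope (at most -0.089, library A) than any WT untreated library (at least 0.143, library B). The same held against every depleted treated library (at least -0.043, library A). Slope and group thus ran together for anti-PD-L1 in WT mice and for B cell status in treated tumours.

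Per kilobase of listed span, Lyz2 was the most abundant of the 10 genes, with 6.88 ± 3.73 CPM per kb (SD, n = 16), followed by Cd68 at 5.94 ± 2.03, C1qa at 3.91 ± 2.39, C1qc at 2.83 ± 1.75 and C1qb at 2.33 ± 1.38. Csf1r was at 0.517 ± 0.095 CPM per kb, Arg1 at 0.0995 ± 0.0554, Itgam at 0.0383 ± 0.0155, Mrc1 at 0.0288 ± 0.0175 and Cd163 at 0.00985 ± 0.00701. The spans include introns, so long genes such as Mrc1 and Itgam sit lower on this scale than they would per kb of exon. The order of the C1q genes depends on the scale too. C1qb, with the longest span of them (6.06 kb), had the most counts, 6240 against 4981 for C1qa and 4056 for C1qc. Neighbours in this order overlapped in range, except Csf1r and Arg1. Lyz2 exceeded Cd68 in 9 of 16 libraries, so those levels were not separated, whereas C1qa exceeded C1qc in 16 of 16.

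C1qa, C1qb and C1qc encode the 3 chains of C1q, the molecule that starts the classical complement pathway and tags dying cells for uptake. Their summed level in untreated tumours was 32.2 ± 20.6 CPM for WT and 40.6 ± 34.5 for depleted mice, and in treated tumours 36.2 ± 12.9 for WT and 29.3 ± 16.9 for depleted mice (SD, n = 4). In WT untreated libraries A to D the sum was 30.6, 61.8, 16.5 and 19.99 CPM. In depleted untreated A to D it was 84.5, 6.06, 21.7 and 50.1 CPM. The highest and the lowest of all 16 libraries were thus in the same group, 13.9-fold apart, and the lowest, library B, rested on 95 counts. WT treated libraries had 48.7, 35.1, 42.4 and 18.7 CPM and depleted treated libraries 26.5, 46.1, 7.08 and 37.6. All 4 groups overlapped.

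The proportions of the C1q genes to one another varied far less than their sum. C1qa made up 32.5 ± 3.3% of the summed counts, C1qb 41.3 ± 3.5% and C1qc 26.2 ± 2.7% (SD, n = 16 libraries). Over the 13.9-fold range of the sum, the share of C1qa ran from 27.3% to 37.8%, that of C1qb from 35.8% to 47.4% and that of C1qc from 21.7% to 33.7%. In WT mice the share of C1qa was 35.9 ± 1.5% untreated and 30.1 ± 3.5% treated (SD, n = 4). That of C1qb was 38.7 ± 1.8% and 44.0 ± 3.1%, and the ranges of these groups overlapped for both genes. Pearson's r of log2 CPM between pairs of the 3 genes was 0.97 or higher.

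**Figure D1:**
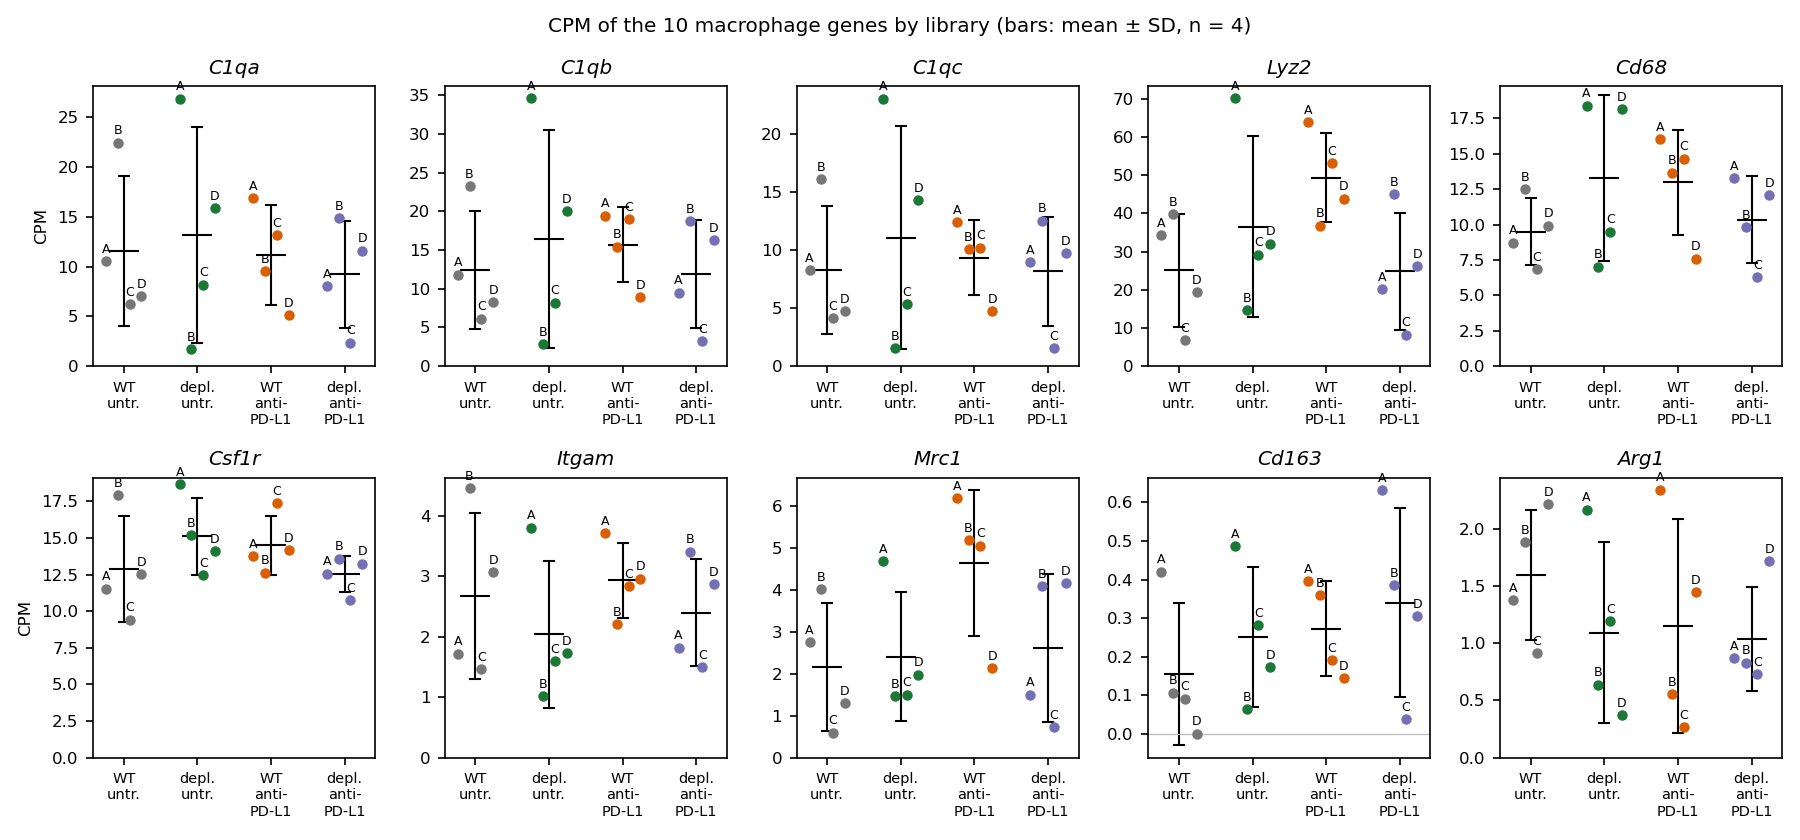
CPM of each of the 10 macrophage genes (vertical axes, one scale per gene) in the 16 libraries by group; points are libraries A to D and bars the mean ± SD (n = 4). The groups overlap for every gene, and depleted untreated A and B lie at opposite ends for the C1q genes (84.5 and 6.06 CPM in sum).

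Lyz2 encodes lysozyme M, a bactericidal enzyme of macrophages and neutrophils, and it gave the most counts of the 10 genes (15020 in all). Its level was 34.3, 39.8, 6.87 and 19.4 CPM in WT untreated A to D and 70.2, 14.7, 29.2 and 32.1 in depleted untreated A to D. In treated tumours it was 63.8, 36.8, 53.1 and 43.9 CPM in WT and 20.1, 45.0, 8.20 and 26.2 in depleted mice. WT treated tumours had the highest mean, 49.4 ± 11.7 CPM, against 25.1 ± 14.9 in WT untreated, 36.5 ± 23.7 in depleted untreated and 24.9 ± 15.4 in depleted treated tumours. WT treated B, at 36.8 CPM, lay below WT untreated B and below depleted treated B, so the ranges overlapped. Cd68, a lysosomal glycoprotein of phagocytes, varied less, between 6.27 and 18.4 CPM. Its mean in untreated tumours was 9.50 ± 2.36 CPM for WT and 13.3 ± 5.9 for depleted mice, and in treated tumours 12.99 ± 3.73 for WT and 10.4 ± 3.1 for depleted mice.

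Csf1r encodes the receptor for CSF1 and IL-34, on which macrophage survival depends. In CPM it had the narrowest range of the 10 genes, from 9.43 CPM in WT untreated C to 18.7 in depleted untreated A, and its group means lay between 12.5 ± 1.3 CPM in depleted treated and 15.1 ± 2.6 in depleted untreated tumours. The counts of Csf1r followed the log2 values that the authors normalized less closely than those of the other 9 genes did: across the 16 libraries r between the 2 tables was 0.76 for Csf1r, 0.84 for Cd163 and between 0.97 and 1.00 for the other 8, with a median of 0.99 over all tested genes. The range of Csf1r was 1.98-fold in CPM and 3.44-fold in the authors' values, where Cd68, at 3.19-fold, was narrower. How far reads from Hmgxb3 entered the counts was not tested; the CPM of Csf1r and Hmgxb3 gave r = 0.27 across libraries (permutation p = 0.307). Itgam, the integrin chain CD11b shared by macrophages, monocytes, neutrophils and NK cells, ranged from 1.02 CPM in depleted untreated B to 4.45 in WT untreated B, with means of 2.68 ± 1.38, 2.04 ± 1.22, 2.93 ± 0.62 and 2.40 ± 0.89 CPM in WT untreated, depleted untreated, WT treated and depleted treated tumours.

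Mrc1 encodes the mannose receptor CD206, which binds and takes up glycoproteins. It was at 2.75, 4.02, 0.595 and 1.30 CPM in WT untreated A to D and at 4.69, 1.47, 1.51 and 1.98 in depleted untreated A to D. In WT treated A to D it was at 6.20, 5.19, 5.06 and 2.13 CPM and in depleted treated A to D at 1.5, 4.09, 0.731 and 4.16. Libraries A, B and C of the WT treated group were the highest 3 of all 16, and library D of that group lay inside the other groups. Cd163, the scavenger receptor for haemoglobin bound to haptoglobin, had only 106 counts in all and none in WT untreated D, where 0 counts allow up to 3. Its means were 0.155 ± 0.183, 0.251 ± 0.180, 0.273 ± 0.124 and 0.340 ± 0.244 CPM in the same order of groups as for Itgam, and a difference between groups was not detectable at this depth.

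Arg1 encodes arginase 1, which breaks down the arginine that T cells need. It was low, between 0.268 CPM in WT treated C and 2.34 in WT treated A, so both ends of its range came from the same group. Untreated means were 1.60 ± 0.57 CPM for WT and 1.09 ± 0.79 for depleted mice, and treated means 1.15 ± 0.94 and 1.04 ± 0.46.

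The comparisons ask whether macrophage RNA differed with B cell status, with treatment, or in its response to treatment. A gene was called at an adjusted p-value under 0.05 in the quasi-likelihood test of edgeR over 19340 genes, and none of the 10 macrophage genes was called in any of the 5 comparisons. Of all genes, 0.698% were called for depleted against WT in treated tumours, 0.889% for the same in untreated tumours, 0.00517% for anti-PD-L1 in WT mice, 0.0672% for anti-PD-L1 in depleted mice and 7.62% for the interaction. Without depleted untreated B, 18.6% of all genes were called in the first of these comparisons and 21.0% with anti-PD-L1 in WT mice, and still 0 of the 10. At an unadjusted p-value under 0.05 the count was also 0 of 10 in each comparison, where 25.0%, 19.2%, 26.4%, 10.4% and 30.8% of all genes passed. DESeq2, which called 7.77%, 5.12%, 9.05%, 1.74% and 16.9% of all genes in the same order, called 0 of 10 as well, and so did limma voom. The shares of all genes called by limma voom were 0.372%, 1.16%, 0.103%, 0.0414% and 7.81%. In CPM, the groups did not separate for any of the 10 genes in any of the 4 comparisons of groups, while they did for 21.8% of all genes by B cell status in treated tumours, 12.7% in untreated tumours, 31.2% by anti-PD-L1 in WT mice and 4.84% in depleted mice. The comparisons with 21.8% and 31.2% were also those whose groups did not overlap in GC slope. The part of the slope in these shares was not tested. P-values measure the spread between these libraries.

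In treated tumours the largest differences of depleted against WT were for Lyz2, with a log2 fold change of -0.98 ± 0.52 (SE, edgeR adjusted p = 0.236, 95% interval -2.07 to 0.10), and Mrc1, with -0.80 ± 0.56 (adjusted p = 0.37). Of the 10 genes 9 were lower and Cd163 higher, with a median of -0.27 against 0.03 over all genes, but leaving out 1 library turned the sign of C1qa, C1qc, Cd163 and Arg1. The interval was narrowest for Csf1r (-0.60 to 0.19). For C1qb it ran from -1.65 to 0.87, which holds changes in either direction.

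In untreated tumours the median of the 10 genes was 0.32, with 8 higher in depleted mice, against 0.04 over all genes. Leaving out 1 library turned the sign of Mrc1 (-0.39 to 0.63), C1qa (-0.41 to 0.74), C1qb (-0.24 to 0.91) and C1qc (-0.21 to 0.96), so the tally rests on single libraries. Cd68 had a log2 fold change of 0.48 ± 0.32 (edgeR adjusted p = 0.407), Lyz2 0.54 ± 0.51 (adjusted p = 0.568) and Cd163 0.75 ± 0.80 (adjusted p = 0.616). Arg1, at -0.56 ± 0.57, and Itgam, at -0.39 ± 0.40, were the pair with a negative sign. Both B cell comparisons used separate libraries.

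With anti-PD-L1 in WT mice, Mrc1 had a log2 fold change of 1.09 ± 0.57 (edgeR adjusted p = 0.224, interval -0.11 to 2.29) and Lyz2 0.98 ± 0.52 (adjusted p = 0.23, interval -0.11 to 2.06). Mrc1 was at 2.17 ± 1.53 CPM in the untreated and 4.65 ± 1.75 in the treated group, and the ranges of the groups overlapped. The median over the 10 genes was 0.25 against -0.01 over all genes. In depleted mice the median was -0.32, and the 7 genes with a negative sign included all 3 C1q genes (-0.44 to -0.51), Lyz2 at -0.55 ± 0.51 (adjusted p = 0.701) and Csf1r at -0.27 ± 0.19 (adjusted p = 0.626). These comparisons share libraries with those by B cell status and do not count as further evidence of a direction.

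The interaction subtracts the B cell difference of untreated tumours from that of treated ones. It was negative for 8 of the 10 genes, with a median of -0.58 against -0.00 over all genes. The largest was for Lyz2, -1.53 ± 0.73 on the log2 scale (unadjusted p = 0.0509, edgeR adjusted p = 0.164, interval -3.06 to 0.01), followed by Mrc1 at -0.95 ± 0.81 (adjusted p = 0.437) and Cd68 at -0.82 ± 0.45 (adjusted p = 0.218). Itgam and Arg1 had positive values of 0.12 ± 0.56 and 0.43 ± 0.81. None passed the threshold.

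**Figure D2:**
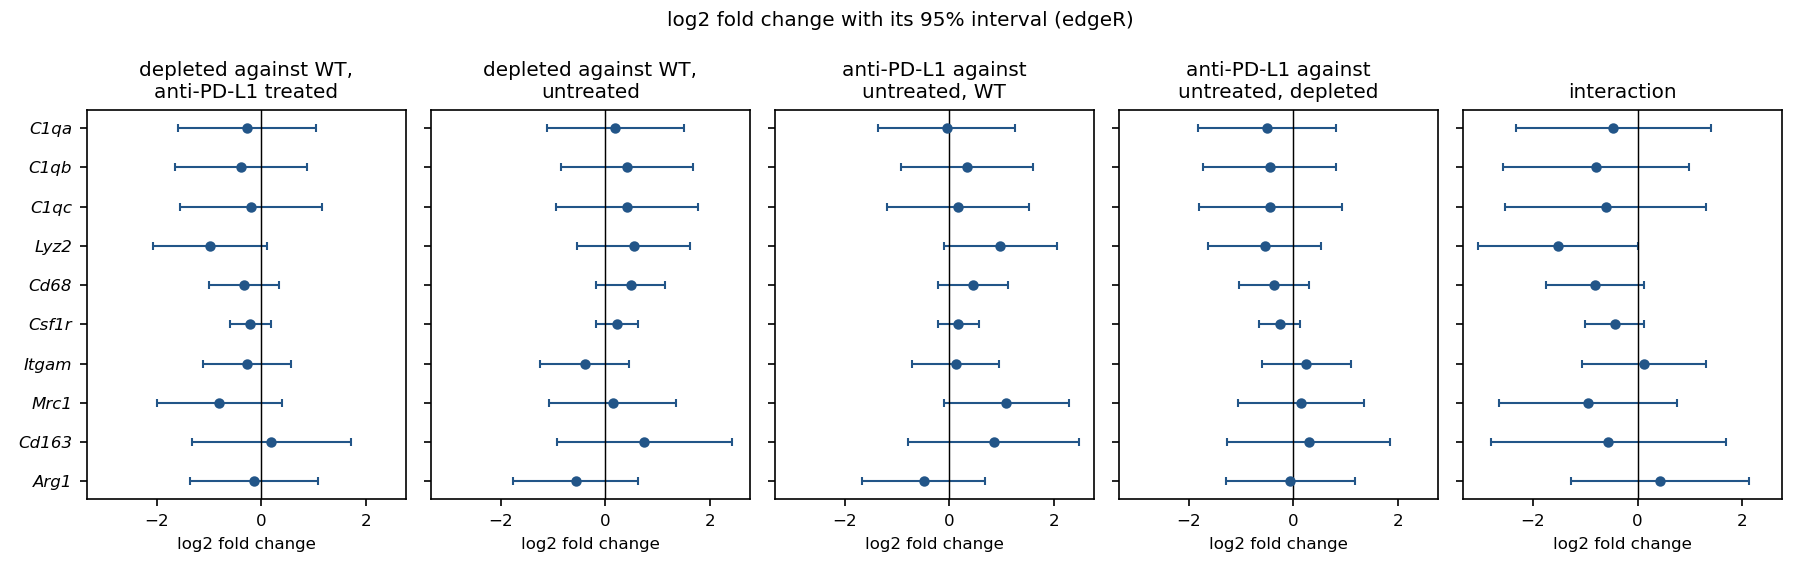
Log2 fold change of each macrophage gene (points) with its 95% interval (bars) in the 5 comparisons, from the edgeR fit over all genes. Every interval includes 0, and that of Lyz2 in the interaction ends at 0.01.

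The spread within groups was large for most of these genes. The SD of log2 CPM within groups was 1.21 for C1qc, 1.17 for C1qa and 1.09 for C1qb, above that of 99.3% or more of all tested genes, whose median was 0.33. Mrc1 (0.97), Cd163 (0.94), Lyz2 (0.91) and Arg1 (0.89) lay above the 97th percentile, while Csf1r (0.26) was at percentile 34.3. Differences between groups took up a median of 15.3% of the variance of the 10 genes, against 30.7% over all tested genes, and only 2.33% for C1qc. Cd163 and Arg1 had the fewest counts of the 10.

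This spread was partly shared between genes. Across the 16 libraries the C1q sum correlated with Cd68 (Pearson r = 0.84, Spearman rho = 0.84, permutation p = 2e-05, two-sided, adjusted 0.00022 over 11 relations). The r was 0.79 with Lyz2 (rho = 0.76, permutation p = 0.00048, adjusted 0.00191), 0.76 with Mrc1 (rho = 0.74, permutation p = 0.00052, adjusted 0.00191) and 0.75 with Itgam (rho = 0.73, permutation p = 0.00077, adjusted 0.00212). Without depleted untreated B and depleted treated C, the libraries farthest from the median C1q sum, these r were 0.80, 0.71, 0.77 and 0.59, and within groups they were 0.88, 0.85, 0.82 and 0.78.

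Csf1r followed less closely, with r = 0.53 (rho = 0.58, permutation p = 0.0358, adjusted 0.0656) and 0.77 without those libraries. Depleted untreated B had a Csf1r level of 15.2 CPM beside the lowest C1q sum. Cd163 gave r = 0.59 (rho = 0.54, permutation p = 0.0154, adjusted 0.0338), which dropped to 0.40 without them. For Arg1 no relation with the C1q sum was seen (r = 0.21, rho = 0.20, permutation p = 0.432). Arg1 came closest to Itgam (r = 0.51, rho = 0.59, permutation p = 0.0445, adjusted 0.0699). These p-values are those of r. By rho the adjusted permutation p was 0.0393 for Csf1r, 0.0533 for Cd163 and 0.0393 for Arg1 with Itgam. Which of these relations passed 0.05 thus depended on the coefficient. Depth gave r = 0.32 with the C1q sum (rho = 0.29, permutation p = 0.234). The GC slope of the library gave r = 0.43 (rho = 0.32, permutation p = 0.0917, adjusted 0.126) and 0.64 within groups, and its part in the shared spread was not tested.

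**Figure D3:**
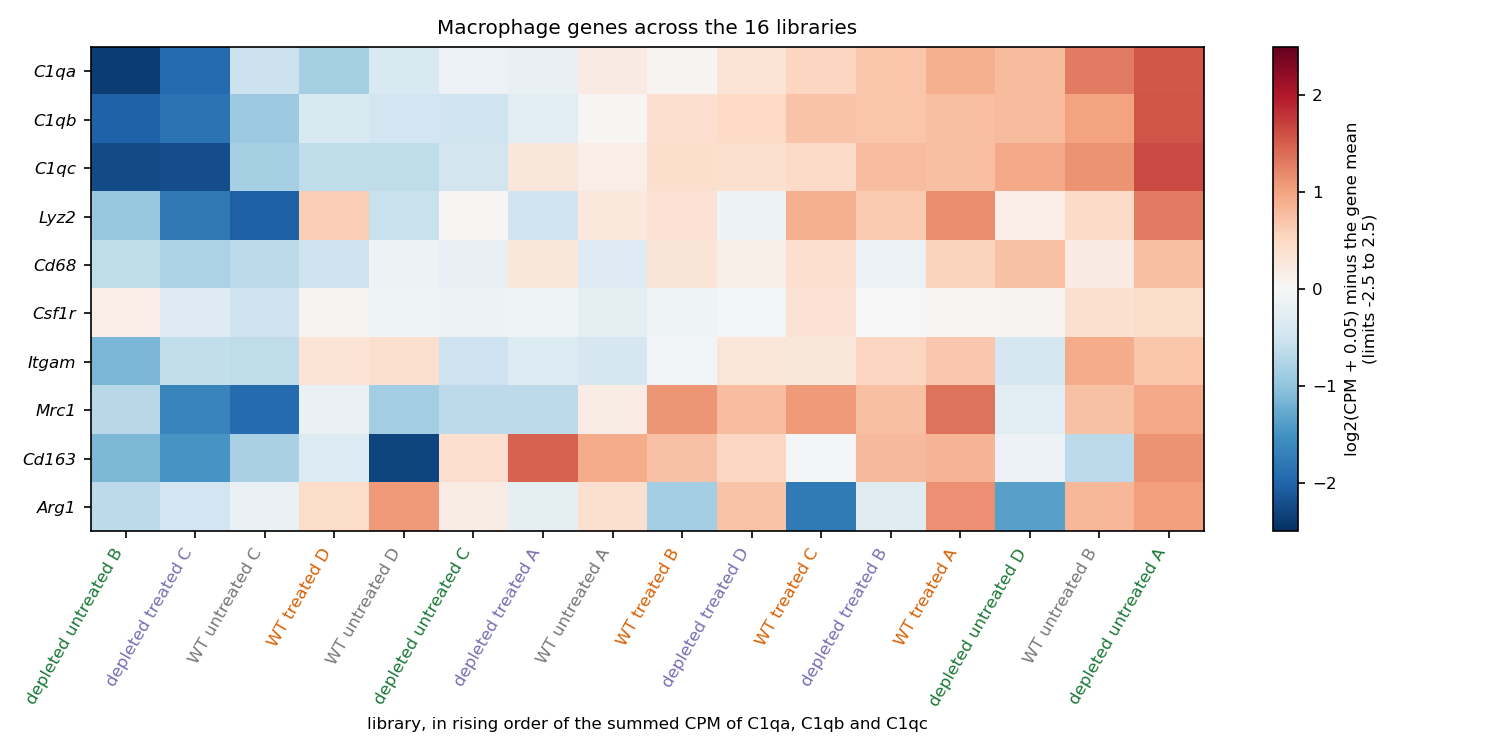
Log2(CPM + 0.05) of each macrophage gene minus its mean over libraries (colour), with the 16 libraries in rising order of the C1q sum, from 6.06 to 84.5 CPM, and their names coloured by group. Lyz2, Cd68 and Mrc1 turn from low to high with the C1q genes, Csf1r varies little and Arg1 does not follow; the groups are mixed along the order.

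Of the 45 pairs of macrophage genes, 19 had r above 0.7 and none was below 0, with a median of 0.65, or 0.69 within groups. The highest value was 0.98, between C1q genes, and the lowest 0.003, between Cd68 and Arg1. Mrc1 was nearer to Lyz2 (r = 0.89) than to Cd163 (r = 0.58). The genes of 1 library share its depth and its RNA, so these values describe the libraries and carry no test.

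**Figure D4:**
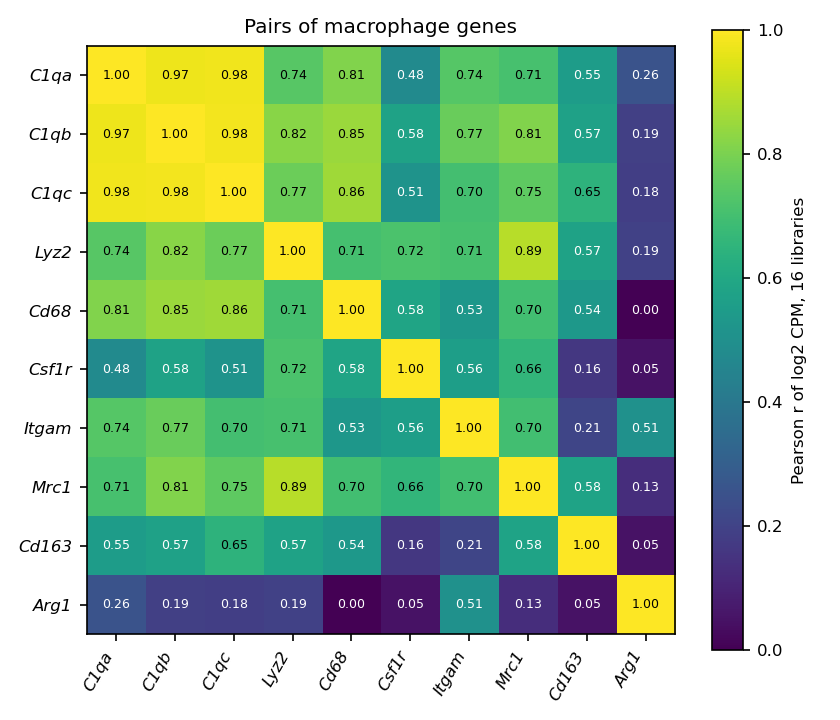
Pearson's r of log2 CPM over the 16 libraries for each pair of macrophage genes (both axes), with colour from 0 to 1. The C1q genes form a block at 0.97 or higher, and the row of Arg1 stays low, with its highest value, 0.51, for Itgam.

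Of all 19340 tested genes, 137 (0.708%) had r above 0.7 with the mean log2 CPM of the 3 C1q genes, among them the C1q genes themselves, which make up that mean, and 4 of the other 7 macrophage genes. Among the 26 tested genes of a list of macrophage surface and phagocytosis genes, 14 did. The closest were Laptm5, a lysosomal membrane protein of blood cells (r = 0.956), Fcrls, an Fc receptor-like scavenger receptor of macrophages and microglia (0.949), Trem2, a lipid-sensing receptor of macrophages (0.946), Cebpa, a transcription factor of myeloid cells (0.944), and C5ar1, the receptor for the complement fragment C5a (0.939). With deviations from group means in place of the levels, 4 of these 5 were still among the closest 5. Spi1, which encodes the myeloid transcription factor PU.1, also followed the C1q sum (r = 0.88), as did Tyrobp, the signalling partner of TREM2 (0.93), Ctss, the lysosomal protease cathepsin S (0.88), and C3ar1, the receptor for C3a (0.78).

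Abundant genes on the same list did not follow: Lamp1, a lysosomal membrane protein of all cells, had r = -0.20 at 607 CPM, Lgals3, or galectin-3, 0.06 at 135 CPM, and Apoe, the lipid carrier apolipoprotein E, 0.30 at 756 CPM. For Csf1r the 5 closest genes were Cd300ld (r = 0.81), Ms4a6c (0.81), Plch2 (0.80), Cxcl16 (0.79) and Aif1 (0.78), and only Ms4a6c stayed among the closest 5 within groups. For Arg1 they were Gm15409 (0.81), Ccr1 (0.74), Ajap1 (0.70), Best1 (0.70) and Galnt12 (0.69), of which Gm15409 stayed. No member of the lists of monocyte or dendritic cell genes had r above 0.7. Among neutrophil genes Csf3r (0.82) and Lyz1 (0.76) did, out of 3 tested, and Lyz1 is a near copy of Lyz2 that can share its reads. The neutrophil list of untreated tumours summed to 0.824 to 2.56 CPM for WT and 1.15 to 4.95 for depleted mice, that of treated tumours to 1.49 to 2.67 and 0.731 to 7.75, and it had r = 0.73 with the C1q sum. Its defining genes S100a8 and S100a9 had 54 and 31 counts in all. The dendritic cell list summed to 15.5 to 107 CPM over the libraries, with r = 0.49, and its gene Xcr1 had 31 counts. The part of these cells in the values of Itgam and Lyz2, which they share with macrophages, was not tested.

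Since Cd68, Lyz2, Mrc1 and Itgam shared much of their spread with the C1q genes, each of the other 7 genes was also set against the C1q sum of its own library. Csf1r, Cd163 and Arg1 shared less of it. The measure was chosen after the data had been seen. Mrc1 was the one gene whose groups then separated. Its counts were 9.0, 6.51, 3.61 and 6.49% of the C1q counts in WT untreated A to D and 12.7, 14.8, 11.9 and 11.4% in WT treated A to D. The mean was 6.40 ± 2.20% without and 12.7 ± 1.5% with anti-PD-L1, a ratio of 1.99 (exact permutation p = 0.0286, two-sided, the smallest that 70 splits allow). Depleted treated tumours had 8.98 ± 2.39%, also below WT treated tumours (ratio 0.706, exact permutation p = 0.0286). The 7 genes and 4 comparisons gave 28 tests, and both p-values were 0.4 after Benjamini-Hochberg adjustment over them. Of all genes, 1.07% and 2.54% separated on this scale in those comparisons. Both comparisons share the WT treated libraries, whose GC slope did not overlap that of WT untreated or depleted treated libraries. The span of Mrc1 has 40.1% GC, against 55.4, 49.2 and 55.1% for C1qa, C1qb and C1qc. The part of the GC slope in this ratio was not tested. In the B cell comparison of untreated tumours none of the 7 genes separated (0.471% of all genes), nor did any with anti-PD-L1 in depleted mice (0.326%). Depleted untreated tumours spread from 3.96 to 24.2%, with the top value in library B, and overlapped both their neighbours.

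The separation belonged to the C1q genes as denominator. Against Lyz2 counts Mrc1 was 8.37 ± 1.42% in WT untreated and 9.55 ± 3.78% in WT treated tumours, which overlapped. Against Cd68, Csf1r, Itgam or the other 9 genes together, the groups overlapped in both comparisons too.

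**Figure D5:**
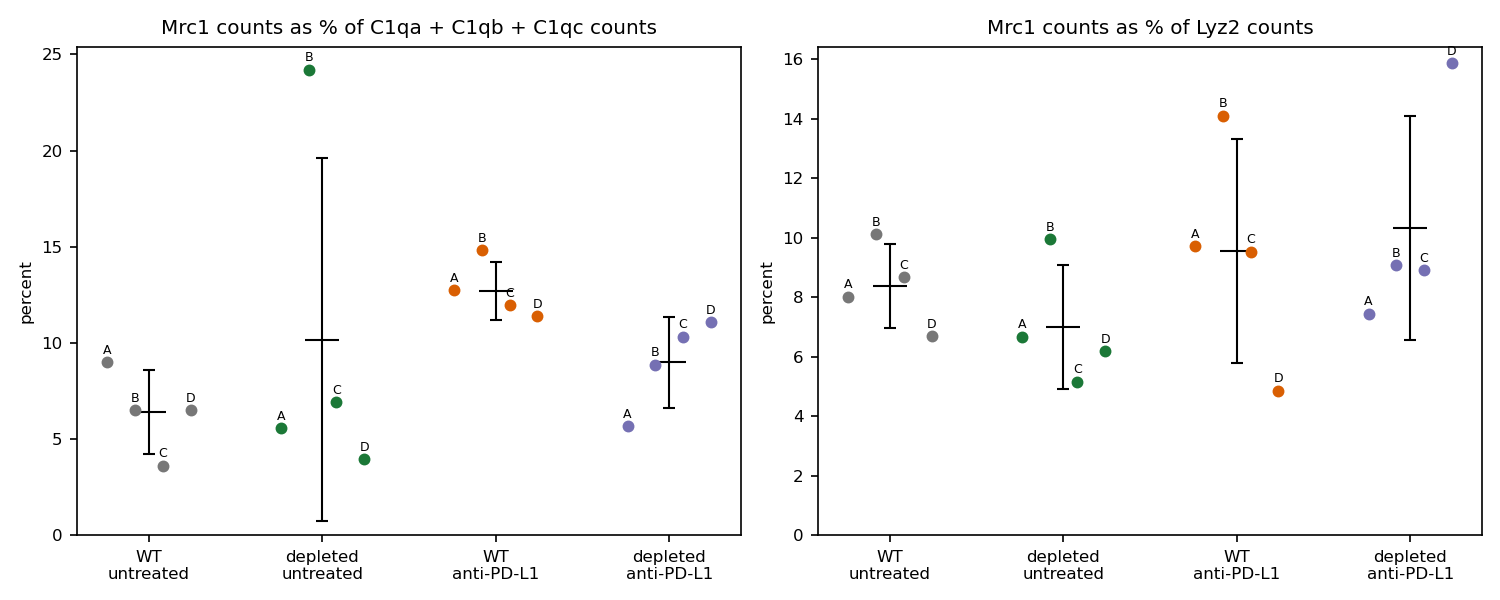
Mrc1 counts as a percentage of the summed C1q counts (left) and of Lyz2 counts (right) in each library by group; points are libraries A to D and bars the mean ± SD (n = 4). On the left WT treated libraries, at 11.4 to 14.8%, lie above WT untreated and depleted treated libraries; on the right all groups overlap.

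Other genes of macrophage biology were taken from lists and are given by their counts. No ligand or growth factor gene was called in any comparison. For depleted against WT in treated tumours, 6 of 6 tested genes of that list were higher, with a median log2 fold change of 0.55. The median over all genes was 0.03. The 6 included Csf1 and Il34, the ligands of the CSF1 receptor, at 0.48 ± 0.23 (edgeR adjusted p = 0.198) and 0.84 ± 0.32 (adjusted p = 0.14). Csf2ra, a chain of the GM-CSF receptor, was at 0.76 ± 0.28 (adjusted p = 0.129). In untreated tumours 3 of the 6 were higher. The shift in treated tumours was not particular to this list: 8 of 8 fibroblast genes (median 0.57) and 6 of 6 monocyte genes (0.34) were higher too. Of the surface and phagocytosis genes 16 of 26 were lower (median -0.23). Among 26 tested surface and phagocytosis genes 0 were called in the 4 comparisons of groups and 1 in the interaction, where 7.62% of all genes were called. Among 12 transcription factors 1 was called in untreated tumours, where 0.889% of all genes were, and 1 in the interaction.

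Those calls were Apoe and Irf5, the latter a transcription factor that drives inflammatory cytokine genes. Irf5 was higher in depleted than in WT untreated tumours (110.9 ± 33.7 against 62.7 ± 2.2 CPM, SD, n = 4, log2 fold change 0.82 ± 0.17, edgeR adjusted p = 0.0368). In treated tumours it was 64.0 ± 3.7 CPM in depleted and 95.5 ± 15.2 in WT mice, and the interaction was -1.40 ± 0.24 (adjusted p = 0.0111). The call in untreated tumours was lost on leaving out any 1 of 9 libraries (adjusted p up to 0.113, log2 fold change 0.63 to 0.96), while the interaction stayed called without each library. The counts of Irf5 cannot be assigned to macrophages: its r with the C1q sum was -0.27 and its level, 83.3 CPM on average, was above that of any of the 10 genes. Its span also shares 1043 bases with Tnpo3, and its counts ran against the authors' log2 values for Irf5 (r = -0.68), in which the interaction had the opposite sign, 2.08 (limma adjusted p = 0.378).

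Apoe had an interaction of 1.39 ± 0.35 on the log2 scale (edgeR adjusted p = 0.0309). Untreated tumours had 1002 ± 69.6 CPM in WT and 643 ± 239 in depleted mice, and treated tumours 514 ± 151 and 866 ± 103 (SD, n = 4). The call was lost with the GC slope as a covariate (0.68, edgeR adjusted p = 0.127) and on leaving out any 1 of 8 libraries, at most with an adjusted p of 0.0666.

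Genes of activation states and arginine use were called in no comparison. Of 12 tested alternative activation genes, 10 were higher in depleted treated than in WT treated tumours, with a median log2 fold change of 0.24. They included Il10, an inhibitory cytokine (1.53 ± 0.62, edgeR adjusted p = 0.151), and Spp1, or osteopontin (1.02 ± 0.42, adjusted p = 0.153). The shift was not particular to this list: 8 of 11 classical activation genes (median 0.49) and 7 of 8 dendritic cell genes (0.82) were higher too. Of the alternative activation genes, 6 of 12 were higher in depleted than in WT untreated tumours (median 0.03). In untreated tumours Il10 was at 1.86 ± 0.61 (adjusted p = 0.132), Spp1 at 1.43 ± 0.42 (adjusted p = 0.0995) and Mgl2, a galactose-binding lectin of macrophages and dendritic cells, at -2.09 ± 0.69 (adjusted p = 0.132). In treated tumours F13a1, a chain of clotting factor XIII made by macrophages, was at -0.50 ± 0.23 (adjusted p = 0.19). Of 7 tested genes of arginine use, all 7 had a positive interaction, with a median of 0.36. Asl, which makes arginine, was at 0.68 ± 0.23 (adjusted p = 0.0715) and Slc7a1, an arginine transporter, at 0.61 ± 0.24 (adjusted p = 0.104). Of 11 tested classical activation genes, Il6 was at 1.38 ± 0.65 by B cell status in treated tumours (adjusted p = 0.199) and 2.34 ± 0.62 in untreated tumours (adjusted p = 0.0755), and the chemokine gene Ccl2 at 0.97 ± 0.29 with anti-PD-L1 in WT mice (adjusted p = 0.0911). Of 13 tested partners of C1q in the complement system, Cfp, or properdin, was at 0.85 ± 0.25 by B cell status in treated tumours (adjusted p = 0.0879) and C4b at 0.81 ± 0.37 (adjusted p = 0.185). Among monocyte genes Plac8 was at 1.37 ± 0.43 in that comparison (adjusted p = 0.0948) and at -1.20 ± 0.43 with anti-PD-L1 in WT mice (adjusted p = 0.116).

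Lists of other cell types held 2 calls in untreated tumours, where 0.889% of all genes were called, and 3 in the interaction, where 7.62% were. Ttn and Xirp2 of skeletal muscle were higher in depleted untreated than in WT untreated tumours, with log2 fold changes of 1.49 ± 0.32 (edgeR adjusted p = 0.0416) and 2.71 ± 0.56 (adjusted p = 0.0357). Both calls were lost when only those groups were fitted (adjusted p = 0.13 and 0.139) and on leaving out any 1 of 10 libraries for Ttn or 9 for Xirp2. Hba-a1, Hba-a2 and Alas2 of red blood cells had interactions of 4.44 ± 0.95, 4.39 ± 0.97 and 3.44 ± 0.90 (edgeR adjusted p = 0.0196, 0.0208 and 0.0349), and all 3 calls were lost with the GC slope as a covariate (adjusted p = 0.203, 0.225 and 0.149). The summed level of the red blood cell list had r = 0.20 with the C1q sum and that of the muscle list 0.09. The keratinocyte list, of cells that also make arginase, summed to 0.885 to 3.40 CPM, and the list of lymphatic and sinusoidal endothelium, which also makes the mannose receptor, to 45.7 to 80.3 CPM with r = -0.24. Their part in the values of Arg1 and Mrc1 was not tested.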

How the data were processed

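Ribosomal RNA was removed, libraries were made with an Ion semiconductor kit, and a service laboratory aligned the reads. The authors deposited raw read counts for each gene on mm10. Aligner, counter and annotation: not given in the sources used here. In all 38087 genes the listed length equals the span. The same deposited table gives the GC content in percent of each span. In another deposited table the log2 values, normalized by the authors (the labels name DESeq), have a median of 0 for each gene. Another 32 columns of per-library values were not used. Tables of the authors' own comparisons, with fold changes, p-values and enrichment results, were not used.

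Counts were tested in R 4.3.3 with edgeR 4.0.16 (quasi-likelihood F test, two-sided, robust, TMM, filterByExpr over the 4 groups), 1 fit over 16 libraries and 19340 genes, with Benjamini-Hochberg adjustment over all of them. Alternatives used DESeq2 1.42.0 and limma 3.58.1 (voom, and the authors' log2 values), other filters, size factors and library sets, and the GC slope, fitted to centred log2 CPM of 16207 genes with 1 CPM or more and given for each 10 points of GC content. For log2 CPM the prior count was 2. The edgeR fit was tested on simulated data. Single values were tested by exact permutation over 70 splits, and correlations by 100000 permutations. A count of 0 allows up to 3 counts, a limit that covers counting error only.

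Of 214 list genes 211 were matched, 5 by an older symbol. Named beside the 10 genes are list genes that were called, up to 3 per list and comparison with the largest change at an unadjusted p under 0.05, and the 5 closest genes by r. Genes named for following or not following C1q (Tyrobp, Spi1, Ctss, C3ar1, Csf3r, Lyz1, Lamp1, Lgals3) and defining markers were chosen after their values were seen. The genes and lists were chosen with earlier results of these data known. The series gives 4 mice per group, and each library was taken as 1 tumour.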

Additional observations from a re-analysis of the deposited data

Results flagged for a closer look

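In 40 groups of 4 libraries (10 genes in 4 groups), 2 had a library far from the others by Dixon's test, about as many as chance gives at 1 in 20. Mrc1 in depleted untreated tumours had its highest value, 4.69 CPM, in library A, the library with the highest C1q sum, against 1.47 to 1.98 CPM in the other 3. Arg1 in depleted treated tumours had its highest value, 1.72 CPM, in library D, against 0.731 to 0.869 CPM.

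Effects of B cell status differed between treated and untreated tumours, by the interaction in edgeR, for 5 of the listed genes and for none of the 10 macrophage genes, where 7.62% of all genes were called. The interactions on the log2 scale were -1.40 for Irf5, 1.39 for Apoe, 4.44 for Hba-a1, 4.39 for Hba-a2 and 3.44 for Alas2.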

How the results depend on the processing

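Over 124 alternative fits of the 5 comparisons, 0 of the 10 macrophage genes were called in each, and the lowest adjusted p of any was 0.0932 (Cd68, interaction, GC slope as covariate, edgeR). Some of these fits called 0 genes of the whole table and so say nothing of the macrophage genes. The lowest count over all genes was 0 in each comparison of groups and 149 in the interaction. Cd163 could not be tested under the filter of 1 CPM. The mean summed level of the 10 genes moved by less than its SD. Signs were less stable: of 50 log2 changes, all uncalled, 26 changed sign under at least 1 alternative, and no direction is claimed for them. The causes were not tested.

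On the authors' log2 values the sign changed for Csf1r (0.19 by B cell status in treated tumours, -0.087 with anti-PD-L1 in WT, 0.071 in depleted mice, 0.16 interaction), Arg1 (0.36 by B cell status treated, 0.46 with anti-PD-L1 in depleted mice), C1qa (-0.14 by B cell status untreated, 0.014 with anti-PD-L1 in WT), Mrc1 (-0.010 with anti-PD-L1 in depleted mice), Cd163 (0.39 interaction), Itgam (-0.037 interaction) and Irf5 (-1.20 untreated, 2.08 interaction). With voom it changed for Cd163 (-0.11) and Arg1 (0.22) by B cell status treated, C1qa untreated (-0.075) and with anti-PD-L1 in WT (0.0030), and Arg1 with anti-PD-L1 in depleted mice (0.17). With the GC slope it changed for Cd163 by B cell status treated (-0.16), C1qa with anti-PD-L1 in WT (1.10), and the interactions of Itgam (-0.38) and Arg1 (-0.0224).

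Leaving out 1 library moved log2 changes across 0. By B cell status in treated tumours the ranges were -0.15 to 0.59 for Cd163, -0.60 to 0.048 for C1qa, -0.48 to 0.16 for C1qc and -0.51 to 0.48 for Arg1. In untreated tumours they were -0.39 to 0.63 for Mrc1, -0.41 to 0.74 for C1qa, -0.24 to 0.91 for C1qb and -0.21 to 0.96 for C1qc. With anti-PD-L1 in WT they were -0.31 to 0.50 for C1qa, -0.049 to 0.71 for C1qc and -0.074 to 0.48 for Itgam. In depleted mice they were -0.16 to 0.68 for Mrc1, -0.042 to 0.74 for Cd163, -0.86 to 0.085 for C1qa, -0.80 to 0.19 for C1qb, -0.79 to 0.19 for C1qc and -0.43 to 0.49 for Arg1. For the interaction they were -1.01 to 0.13 for C1qa, -1.15 to 0.015 for C1qc and -0.23 to 0.60 for Itgam.

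Leaving out 1 library cannot make separated groups overlap, so the separation of Mrc1 relative to C1q was not tested in this way. Its ratio then ran from 1.73 to 2.30 for anti-PD-L1 in WT mice. For depleted against WT treated tumours it ran from 0.652 to 0.793. By other denominators all groups overlapped. With anti-PD-L1 in WT mice the ratio of Mrc1 was then 1.63 (Cd68), 1.14 (Lyz2), 2.07 (Csf1r), 1.96 (Itgam) and 1.66 (other 9 genes). For depleted against WT treated tumours it was 0.712 (Cd68), 0.616 (Csf1r), 0.608 (Itgam) and 0.768 (other 9 genes), but 1.08 (Lyz2). For untreated tumours it was 0.856 (Cd68), 0.836 (Lyz2), 0.968 (Csf1r), 0.997 (other 9 genes) and 1.43 (Itgam). For anti-PD-L1 in depleted mice it was 1.36 (Cd68), 1.48 (Lyz2), 1.32 (Csf1r), 1.28 (other 9 genes) and 0.833 (Itgam). Against C1q, leaving out 1 library gave 0.856 to 1.91 in untreated tumours and 0.734 to 1.64 in depleted mice, where library B of the depleted untreated group decided the sign. The untreated call of Irf5 was lost when only the groups compared were fitted (adjusted p = 0.125, edgeR), and without any of WT untreated A to D, depleted untreated C, WT treated B or C, or depleted treated B or C (adjusted p 0.018 to 0.113 over all 16). The interaction of Apoe lost its call on the authors' values (1.53, limma adjusted p = 0.0771) and without any of WT untreated A, C or D, depleted untreated C, WT treated B or D, or depleted treated C or D (0.0129 to 0.0666 over all 16). Without any 1 library the adjusted p ran from 0.0149 to 0.137 for Ttn, 0.0135 to 0.122 for Xirp2 and 0.0283 to 0.075 for Alas2, and Hba-a1 and Hba-a2 kept their calls; with no filter the 3 red cell genes lost theirs (0.0534 to 0.072).

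Counts of called genes over the whole table, in the order of the comparisons (135, 172, 1, 13 and 1474), ranged over alternatives from 0 to 3656, 0 to 990, 0 to 5378, 0 to 336 and 149 to 3890. Without depleted untreated B, 3656 genes were called by B cell status in treated tumours and 4123 by anti-PD-L1 in WT mice, none of them a macrophage gene. No paired analysis was possible by the replicate numbers of the labels because the columns carry letters instead. The column letter as a replicate block, chosen after seeing the data, gave 0, 66, 0, 5 and 587 called genes and 0 macrophage genes, turned Arg1 by B cell status in treated tumours (0.079) and C1qa with anti-PD-L1 in WT mice (0.060), and lost the untreated calls of Irf5, Ttn and Xirp2 and the interaction of Alas2 (adjusted p = 0.0725, 0.0706, 0.0726 and 0.0704, edgeR). Libraries of 1 letter did not deviate together: r was above 0.1 in 3 of 24 pairs (-0.35 to 0.34), and 6 of 16 libraries correlated best with their own letter.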
